A study of Homo sapiens with 12 samples.

Results

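The 8 genes described here, ESM1, ANGPT2, ANGPTL4, VEGFA, VEGFB, VEGFC, TIE1 and HEG1, code for secreted angiogenic factors and for membrane proteins best known from blood vessel endothelium. They were picked by name from the 57865 features of the expression table, with their levels in these same libraries already known, so their differences between groups are given as a description and not as tests. All 8 passed the filter on low values and are among the 13782 genes tested. ES-2, an established ovarian cancer cell line, received siRNAs that target IGF2BP1 in the group siI1, IGF2BP2 in siI2 and IGF2BP3 in siI3, or control siRNAs in siC. Each of the 4 groups had 3 libraries of total RNA depleted of ribosomal RNA. The labels do not give the siRNA sequences, the time after transfection or whether the 3 libraries of a group were separate cultures, so every spread and p-value measures only the spread between these samples. Every library carries the same note of parental cells as its treatment, and groups were taken from the titles.

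IGF2BP1, IGF2BP2 and IGF2BP3 are related RNA-binding proteins that attach to mRNAs and act on how long they last and how they are translated, and the series is titled for IGF2BP1 shielding mRNAs from miRNAs. New blood vessels form when VEGF ligands bind the receptor tyrosine kinases FLT1, KDR and FLT4 on endothelial cells, while angiopoietins acting through TEK and its partner receptor TIE1 set whether vessels stay quiescent or are remodelled. Tumor cells are a known source of the ligands, whereas TIE1 and HEG1 are known mainly from the endothelium itself.

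Levels are in FPM, a depth-normalized fragment unit as the authors scaled it. The libraries held 3299360 to 11304060 reads, and 3 reads, taken as the floor of detection, equalled 0.324 to 0.727 FPM. The targeted mRNA averaged 11.1 ± 0.539 FPM in siI1 and 43.9 ± 4.52 FPM in siC for IGF2BP1 (SD, n = 3 each). IGF2BP2 averaged 13.4 ± 5.10 FPM in siI2 and 80.0 ± 4.72 FPM in siC, and IGF2BP3 4.52 ± 1.76 FPM in siI3 and 23.5 ± 5.18 FPM in siC. The siC replicates 1 and 3 stood apart in base composition. Their log2 deviations fell by 0.46 and by 0.43 for each 10 points of transcript GC content, against slopes of -0.09 to 0.21 in the 9 knockdown libraries and 0.03 in siC replicate 2. A value corrected for GC content and transcript length is therefore given beside each difference of the 8 genes from siC whose sign or call it changed, and beside several others.

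A gene is written as called where limma's adjusted p, over all 13782 genes, was below 0.05. In siI1 against siC, 4 of the 8 genes were called, 2 higher and 2 lower, where 8.18% of all genes were called, 3.77% higher and 4.42% lower. In siI2 against siC limma called 0 of the 8, where 1.51% of all genes were called. There, 3 of the 8 had an unadjusted p below 0.05, edgeR called 0 and DESeq2 called 2. In siI3 against siC, 2 of the 8 were called, 1 in each direction, where 10.6% of all genes were called, 2.3% higher and 8.29% lower. The 3 libraries of the knockdown and of siC did not overlap for 5 of the 8 genes in siI1, where 32.8% of all genes did not overlap. They did not overlap for 3 of the 8 in siI2, where the share of all genes was 20.1%, and for 3 of the 8 in siI3, where it was 29.3%. Since the levels led to the choice of the genes, nothing is read from these counts. The median log2 fold change of the 8 was -0.22 in siI1, 0.18 in siI2 and 0.14 in siI3, beside -0.05, -0.09 and -0.05 over all genes.

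**Figure D1:**
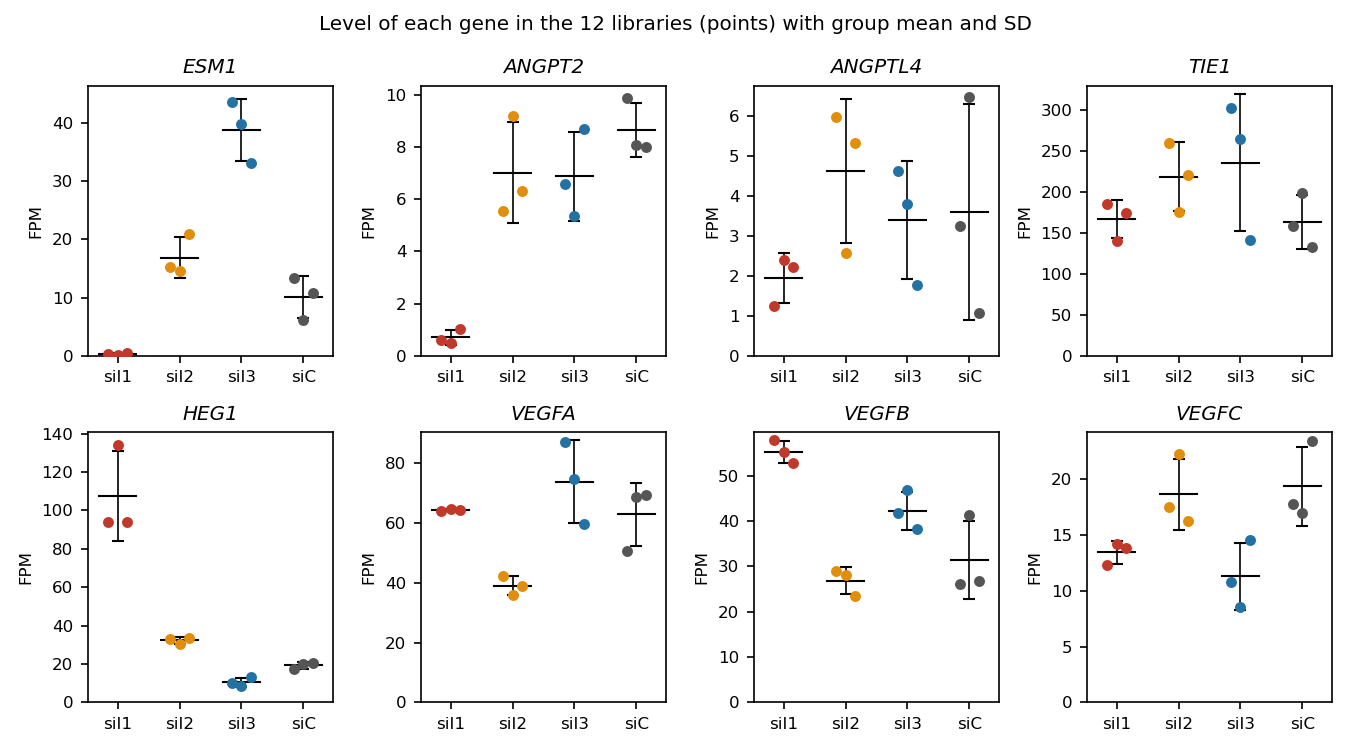
Level in FPM (vertical axis, from 0) of each of the 8 genes in the 12 libraries, by siRNA group. Points are libraries, the long bar is the group mean and the whiskers are 1 SD (n = 3). ESM1 and ANGPT2 lie at or near 0 in siI1, with means of 0.328 and 0.709 FPM, while HEG1 is at its highest there, with a mean of 108 FPM.

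ESM1 (ENSG00000164283, chromosome 5) codes for endocan, a proteoglycan secreted by activated endothelium and known as a marker of endothelial tip cells. It was almost undetected after IGF2BP1 knockdown and at its highest after IGF2BP3 knockdown. It measured 0.311, 0.160 and 0.513 FPM in siI1, 15.3, 14.5 and 20.9 FPM in siI2, 43.6, 39.8 and 33.1 FPM in siI3, and 13.3, 6.15 and 10.8 FPM in siC. The siI1 libraries held 1 to 3 reads each, at or under the floor, and every siI3 library lay above every library of the other groups. Pooled over libraries, 6 reads in siI1 against 252 in siC gave a level of 3.25% of siC, with an exact 95% interval of 1.18% to 7.17% that covers counting error only. The fitted log2 fold change of siI1 against siC was -3.01 (SE 0.28, called), and it is no bound, since it was -1.67 with a pseudocount of 4 FPM, -4.14 with 0.25 FPM and -4.93 with DESeq2.

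In siI3 the ESM1 mean was 38.8 ± 5.31 FPM, against 10.1 ± 3.65 FPM in siC (SD, n = 3 each), a log2 fold change of 1.89 (SE 0.28, called). In siI2 the mean was 16.9 ± 3.45 FPM and the log2 fold change against siC was 0.73 (SE 0.28), which was not called, although the 3 siI2 libraries all lay above the 3 siC libraries. The ESM1 transcript is poor in GC (40.1%), and correcting for GC content and length moved the 3 log2 fold changes to -2.46 in siI1, 1.24 in siI2 and 2.40 in siI3, all of them called. The calls in siI1 and siI3 held whichever of the 6 libraries was left out.

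ANGPT2 (ENSG00000091879, chromosome 8) codes for angiopoietin-2, the ligand that competes with angiopoietin-1 for TEK and loosens vessels. Like ESM1 it was low in siI1, but it was not raised in siI3. It measured 0.621, 0.480 and 1.03 FPM in siI1, 5.54, 9.19 and 6.30 FPM in siI2, 6.59, 5.34 and 8.68 FPM in siI3, and 9.86, 8.09 and 7.99 FPM in siC. The 3 siI1 libraries, with 3 to 6 reads each, lay below all 9 others, and the ranges of siI2, siI3 and siC overlapped. The 13 pooled reads in siI1 against 219 in siC gave 8.09% of the siC level, with an exact 95% interval of 4.24% to 14.1% for counting error only. The log2 fold change of siI1 against siC was -2.50 (SE 0.28, called), with 6 of 6 calls when 1 library was left out and -1.94 after the correction for GC content and length, its transcript holding 38.7% GC. Against siC it was -0.29 in siI2 and -0.31 in siI3, neither called, and the correction turned both signs, to 0.28 and 0.18.

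ANGPT2 lies inside MCPH1, a gene for a DNA damage and chromosome condensation factor on the opposite strand, and 1.15% of its exon bases are shared with MCPH1 exons. No source used here gives the strand setting of the counting, so reads of the 2 genes cannot be told apart at those bases. MCPH1 averaged 6.24 ± 3.52 FPM in siI1, 5.21 ± 1.79 FPM in siI2, 4.78 ± 1.61 FPM in siI3 and 7.67 ± 2.39 FPM in siC (SD, n = 3 each), and its log2 fold change of siI1 against siC was -0.34.

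ANGPTL4 (ENSG00000167772, chromosome 19) codes for a secreted inhibitor of lipoprotein lipase that also acts on vessel permeability. It was covered by few reads and scattered widely between libraries of a group. It measured 1.24, 2.40 and 2.22 FPM in siI1, 5.96, 2.57 and 5.33 FPM in siI2, 4.63, 3.81 and 1.77 FPM in siI3, and 3.25, 6.47 and 1.08 FPM in siC. The siC libraries alone, with 8 to 60 reads, spanned all siI1, siI2 and siI3 values. The log2 fold changes against siC were -0.48 in siI1, 0.42 in siI2 and 0.06 in siI3 (SE 0.43 each), none called. The sign in siI3 turned to -0.35 with the correction for GC content and length, and leaving out siC replicate 3 turned the sign in siI2 and in siI3, to -0.06 and -0.42. The range of the siC libraries was wider than any of these differences between group means.

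VEGFA (ENSG00000112715, chromosome 6), the main ligand of KDR and FLT1 and the best known tumor angiogenic factor, was near the siC level in siI1 and lower in siI2. It measured 64.1, 64.8 and 64.3 FPM in siI1, 42.4, 35.8 and 39.0 FPM in siI2, 87.1, 74.8 and 59.5 FPM in siI3, and 50.7, 68.6 and 69.4 FPM in siC. The 3 siI2 libraries lay below the other 9, and siI1 and siI3 each overlapped siC. The log2 fold change against siC was 0.05 in siI1, -0.66 in siI2 and 0.23 in siI3 (SE 0.19 each), none called by limma, while DESeq2 called the siI2 value at -0.60. Without siC replicate 1 the siI1 value was -0.10.

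VEGFB (ENSG00000173511, chromosome 11), a ligand of FLT1 linked to fatty acid uptake and coronary vessels, was highest in siI1. It measured 57.8, 55.2 and 52.8 FPM in siI1, 28.96, 28.1 and 23.5 FPM in siI2, 41.7, 46.7 and 38.3 FPM in siI3, and 26.1, 41.4 and 26.7 FPM in siC. All siI1 libraries lay above all others, and siC replicate 2 stood above the other siC libraries. The log2 fold change of siI1 against siC was 0.83 (SE 0.20, called). It was 0.42 and not called after the correction for GC content and length (66.7% of the transcript is G or C). It was also not called in 5 of the 6 fits without 1 library, those without siC replicate 1, siC replicate 3 or any siI1 replicate, at 0.71 to 0.86. In siI2 it was -0.19 and in siI3 0.44, not called. The siI2 value turned to 0.02 without siC replicate 2, and the siI3 value was 0.65 and called without that library but -0.07 after the correction.

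VEGFC (ENSG00000150630, chromosome 4), the ligand of FLT4 that drives lymphatic vessel growth, was lower in siI1 and siI3 than in siC without being called. It measured 12.3, 14.2 and 13.8 FPM in siI1, 17.5, 22.2 and 16.2 FPM in siI2, 10.8, 8.51 and 14.5 FPM in siI3, and 17.7, 16.9 and 23.4 FPM in siC. The siI1 and siI3 libraries all lay below the siC libraries, and those of siI2 overlapped them. The log2 fold changes against siC were -0.48 in siI1, -0.05 in siI2 and -0.74 in siI3 (SE 0.24 each). The siI3 value was called without siC replicate 2, at -0.83, or without siI3 replicate 3, at -0.93, and the small siI2 value changed sign under 2 other scalings, to 0.03 and 0.04, and after the correction for GC content and length, to 0.02.

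TIE1 (ENSG00000066056, chromosome 1), the receptor tyrosine kinase that partners TEK, had the highest mean per kilobase of transcript of the 8 genes in every group. In siI1 the rank is not clear, since TIE1 and VEGFB libraries overlapped, with means of 42.9 and 40.0 FPM per kb. The TIE1 group means ran from 42.1 FPM per kb in siC to 60.7 in siI3. It measured 185, 141 and 175 FPM in siI1, 259, 175 and 220 FPM in siI2, 302, 264 and 141 FPM in siI3, and 158, 199 and 133 FPM in siC. All groups overlapped siC, and siI3 replicate 3 lay far below the other siI3 libraries. The log2 fold changes against siC were 0.04 in siI1, 0.42 in siI2 and 0.47 in siI3 (SE 0.26 each), none called. Without siI3 replicate 3 the siI3 value was 0.81 and called. After correction the values were -0.34 in siI1, where the sign turned, 0.11 in siI2 and 0.11 in siI3.

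HEG1 (ENSG00000173706, chromosome 3), a mucin-like transmembrane receptor that tethers the KRIT1 and CCM2 complex at endothelial junctions, was highest in siI1 and lowest in siI3, the reverse of ESM1. It measured 94.1, 134 and 94.2 FPM in siI1, 33.2, 30.3 and 33.5 FPM in siI2, 10.2, 8.38 and 13.1 FPM in siI3, and 17.2, 20.1 and 20.7 FPM in siC. No group overlapped another, in the order siI1, siI2, siC and siI3. The siI1 mean was 108 ± 23.2 FPM, against 19.3 ± 1.89 FPM in siC (SD, n = 3 each), a log2 fold change of 2.40 (SE 0.21, called) that stayed between 2.23 and 2.51 in the alternatives and in the fits without 1 library. In siI3 it was -0.83 (SE 0.21, called), with calls lost without siC replicate 1, siC replicate 3, siI3 replicate 1 or siI3 replicate 2, at -0.68 to -0.90. In siI2 it was 0.72 (SE 0.21), not called by limma, and it was called after the correction for GC content and length at 0.82 and by DESeq2 at 0.83.

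**Figure D2:**
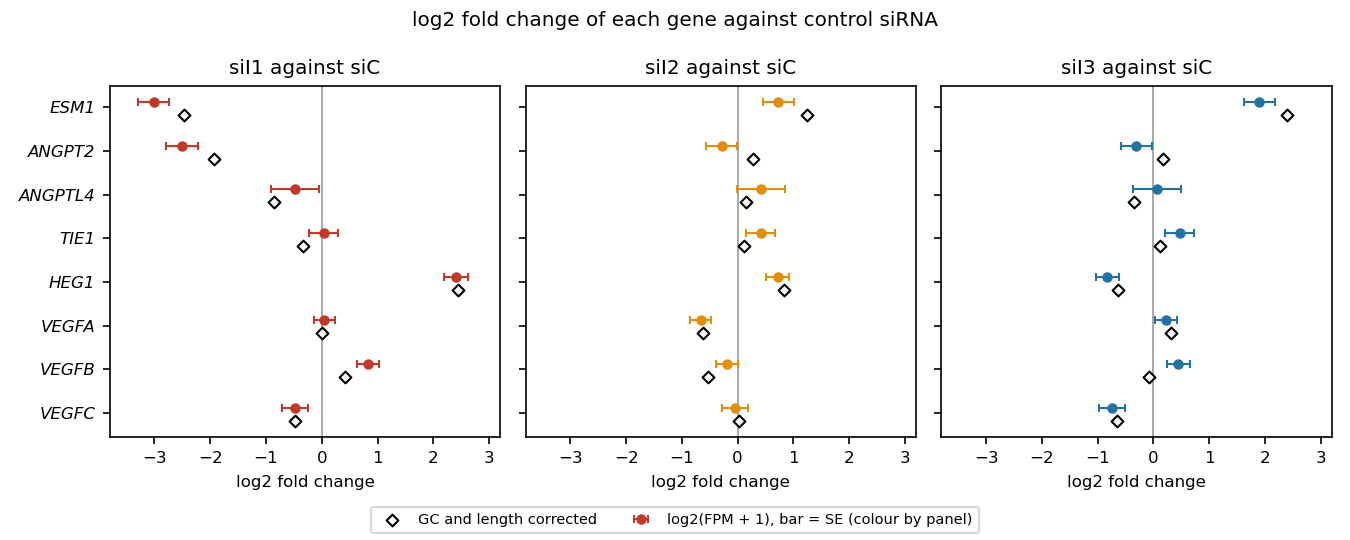
Log2 fold change (horizontal axis) of the 8 genes in each knockdown against siC. Filled points are the limma values with bars of 1 SE, and open diamonds are the values after correction for GC content and transcript length. In siI1, ESM1 and ANGPT2 lie left of -1.9 and HEG1 right of 2.3 with either value, and the diamonds of ESM1 and ANGPT2 lie right of their points in all 3 panels.

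Base composition separated the genes by how the correction moved them. For the GC-poor transcripts of ESM1 and ANGPT2 it moved the log2 fold change upward in all 3 knockdowns. For the GC-rich transcripts of VEGFB, ANGPTL4 (63.3%) and TIE1 (60.8%) it moved the value downward in all 3. HEG1 (49.1%), VEGFA (51.3%) and VEGFC (51.4%) lie between them, and their values moved less, those of HEG1 in siI3 the most, to -0.63. In the authors' deposited table, the log2 fold changes of siI1 against siC were -4.89 for ESM1, -3.59 for ANGPT2, 2.48 for HEG1 and 0.81 for VEGFB. Those of siI3 against siC were 1.94 for ESM1 and -0.87 for HEG1. These values are given for their size only, and no call is read from them.

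Setting the knockdowns against each other removes the siC libraries from the difference. In siI1 against siI2, 4 of the 8 genes were called, where 2.4% of all genes were: ESM1 at -3.74, ANGPT2 at -2.22, HEG1 at 1.68 and VEGFB at 1.02 on the log2 scale. VEGFB lost its call without any 1 of the siI1 replicates, at 0.99 to 1.05. In siI1 against siI3, 3 were called, where 7.05% of all genes were: ESM1 at -4.91, ANGPT2 at -2.19 and HEG1 at 3.23. The pooled reads put HEG1 in siI1 at 10.4 times its siI3 level, with an exact 95% interval of 9.06 to 12.1 for counting error only. In siI2 against siI3, 3 were called, where 2% of all genes were: HEG1 at 1.54, ESM1 at -1.16 and VEGFA at -0.89. HEG1 kept its call there in each of the 6 fits without 1 library, while ESM1 and VEGFA each lost theirs without siI2 replicate 1, siI2 replicate 2, siI3 replicate 1 or siI3 replicate 2. ESM1 also lost its call there with the replicate number as a block, with edgeR or a pseudocount of 0.25 FPM, at -1.15 to -1.20. Both genes lost theirs with no filter on low values or with only the 6 libraries compared. Outside these calls, VEGFA in siI1 against siI2, at 0.71, was called with the correction, with DESeq2 or with only the 6 libraries compared. VEGFB in siI1 against siI3 was called with the correction, at 0.49, and TIE1 there without siI3 replicate 3, at -0.77. The groups did not overlap for 7 of the 8 genes in siI1 against siI2, where 21.5% of all genes did not, for 4 in siI1 against siI3, where 28.1% did not, and for 5 in siI2 against siI3, where 16.5% did not.

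Per kilobase of the longest coding transcript, averaged over the 12 libraries, the level ran from TIE1 at 50.5 FPM per kb through VEGFB at 28.2, VEGFA at 17.0, ESM1 at 7.63, VEGFC at 7.60, HEG1 at 4.64 and ANGPTL4 at 1.81 to ANGPT2 at 1.07 FPM per kb. The library ranges of every 2 neighbours in this order overlapped. ESM1 and VEGFC cannot be ranked, since ESM1 ran from a group mean of 0.15 FPM per kb in siI1 to one of 17.9 in siI3. The order also differed by group: HEG1 stood at 11.8 FPM per kb in siI1, above VEGFC at 6.52, and at 2.11 in siC, below VEGFC at 9.38.

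Across the 12 libraries ESM1 and HEG1 ran against each other, with a Pearson correlation of log2(FPM + 1) of -0.92, and ESM1 and ANGPT2 ran together, at 0.86. These correlations describe libraries that fall into groups and share their scaling, and carry no test. Over genes averaging 5 FPM or more, those most like ESM1 were CIPC (0.957), VPS37B (0.941) and the chemokine CXCL5 (0.932). Those most like ANGPT2 were HDLBP (0.961), DOCK4 (0.954) and ZWINT (0.947). HDLBP, itself an RNA-binding protein, averaged 156 ± 3.40 FPM in siI1 and 691 ± 75.1 FPM in siC (SD, n = 3 each). Those most like HEG1 were EFEMP1 (0.983), ADAM19 (0.968) and DENND2A (0.965), and EFEMP1 averaged 30.9 ± 6.54 FPM in siI1 and 4.02 ± 0.984 FPM in siC. For TIE1 they were CDCA5 (0.977), IRAK1 (0.972) and H3F3C (0.968). For VEGFA they were MFN2 (0.926), DNAJC14 (0.920) and LINC01605 (0.919). For VEGFB they were C16orf58 (0.957), AC010457.1 (0.942) and NR1H3 (0.938). The nearest to VEGFC were S100PBP (0.910), WDR11 (0.909) and ZNF106 (0.906), and the nearest to ANGPTL4 were CPNE2 (0.893), SOCS7 (0.871) and ITPK1 (0.856).

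Because the series is about miRNA-directed repression, the 3' UTRs of the 8 genes were searched for the 7 letters that pair with bases 2 to 8 of 14 widely studied miRNA families. For ESM1, low in siI1, and HEG1, high in siI1, some of the matches are shown. The mature miRNAs are from RefSeq (GRCh38.p14), with the seed, bases 2 to 8, in capitals:
hsa-let-7a-5p: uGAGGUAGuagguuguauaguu
hsa-miR-20a-5p: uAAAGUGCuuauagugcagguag
hsa-miR-21-5p: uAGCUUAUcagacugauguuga
hsa-miR-181a-5p: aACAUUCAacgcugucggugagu
The matches below are read 5' to 3' from GENCODE transcripts (GRCh38, minus strand), with the matching letters in capitals.
ESM1, miR-181a match at chr5:54977964-54977970: ccaacagagttgTGAATGTgtgtgggaagg
ESM1, miR-181a match at chr5:54977942-54977948: tgggaaggccttTGAATGTaaagctgcata
ESM1, miR-21 match at chr5:54977927-54977933: atgtaaagctgcATAAGCTgttaggttttg
HEG1, miR-20a match at chr3:124970305-124970311: ttcccttcgtttGCACTTTagtaaattggg
HEG1, miR-20a match at chr3:124969831-124969837: gcaggcagggggGCACTTTtcatccatgag
HEG1, miR-20a match at chr3:124969545-124969551: ccggctactgcaGCACTTTgtacccagaat

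All these matches lie in annotated 3' UTR exons. ESM1 held 4 matches of 3 families in a 3' UTR of 1468 bases, all within its last part from base 1317 on. HEG1 held 12 matches of 9 families in 4942 bases, VEGFA 6 matches of 6 families in 1925 bases, and ANGPT2 3 matches of 3 families in 3450 bases. The other 4 genes have 3' UTRs of 386 to 487 bases and held 1 or 2 matches each. Over 11245 genes the median was 2 families in 1411 bases. The letters TGAATGT (miR-181a) occur in 22.1% of those 3' UTRs, ATAAGCT (miR-21) in 10.3% and GCACTTT (miR-20a) in 25.9%. Genes that differ in direction shared families: HEG1 also held a miR-181a match, and ESM1 and HEG1 each a miR-200b match. ANGPT2, low in siI1 like ESM1, held the miR-20a and miR-181a letters. The let-7 letters CTACCTC occur in 11.2% of 3' UTRs and in 0 of the 8 genes. A match describes letters only: miRNA levels are not part of these libraries, and whether a match has any part in the differences was not tested.

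The list of VEGF ligands and receptors other than the 8 genes had 7 genes, of which 4 were tested. NRP1, a VEGF co-receptor, fell in siI3 to 69.0 ± 10.0 FPM, against 137 ± 9.76 FPM in siC (SD, n = 3 each), with a log2 fold change of -0.99 (SE 0.17, limma adjusted p = 0.0053), and it was called in 6 of 6 fits without 1 library and at -0.58 after the correction. PGF, NRP2 and FLT4 were not called in any knockdown against siC, but PGF, a ligand of FLT1, was called lower in siI3 after the correction, at -1.01 against -0.56 before it (limma adjusted p = 0.048 and 0.25). The median log2 fold change of the 4 was 0.12 in siI1, 0.41 in siI2 and -0.18 in siI3. With limma, 0 of the 4 were called in siI1 and in siI2 and 1 in siI3, where 8.18%, 1.51% and 10.6% of all genes were called. In siI1 and siI2, 0 and 1 of the 4 had an unadjusted p below 0.05, and edgeR and DESeq2 called 0. The receptors KDR and FLT1 were near 0. KDR reached at most 2.20 FPM and FLT1 at most 1.42 FPM in any library. Of 11 further angiopoietin system genes, 1 was tested, the phosphatase PTPRB, which was not called. TEK, the receptor of ANGPT2, had at most 2 reads in any library (0.354 FPM), and the competing ligand ANGPT1 at most 1.70 FPM.

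Of the 10 genes around HEG1 and the CCM complex, 8 were tested and limma called 0 in each knockdown against siC. Of all genes, 8.18%, 1.51% and 10.6% were called in siI1, siI2 and siI3, so 0 of 8 lies near the background. At an unadjusted p below 0.05 there were 2 of the 8 in siI1, 2 in siI2 and 4 in siI3. For these 8, edgeR called 1, 0 and 0 and DESeq2 called 1, 0 and 2. The siI1 call of both tools was PDCD10, a further CCM protein, and in siI3 DESeq2 called CCM2 and PDCD10. PDCD10 averaged 1.02 ± 0.385 FPM in siI1 and 5.10 ± 3.39 FPM in siC (SD, n = 3 each), with a log2 fold change of -1.39 (SE 0.46, limma adjusted p = 0.071) that was -0.77 after the correction. CCM2, the adaptor of the complex, averaged 36.7 ± 4.76 FPM in siI1 and 27.3 ± 3.93 FPM in siC, and its partner KRIT1 3.65 ± 0.954 FPM in siI1 and 6.40 ± 3.40 FPM in siC (SD, n = 3 each). KLF2, a transcription factor that the complex restrains in endothelium, averaged 2.54 ± 0.668 FPM in siI1 and 3.03 ± 0.370 FPM in siC. KLF4, also on this list, was higher in siI1, with a mean of 8.16 FPM against 4.55 FPM in siC. Its log2 fold change there was 0.76 (SE 0.32, limma adjusted p = 0.14). In siI1 against siI2, KLF4 was called at 1.68 (limma adjusted p = 0.0086). That call was lost without siI1 replicate 1 or siI1 replicate 3. The median log2 fold change of the 8 was -0.10 in siI1 against siC, beside 2.40 for HEG1.

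Of 26 other secreted angiogenic factors, 17 were tested. In siI1, 1 rose and 2 fell against siC (median log2 fold change -0.06), where 3.77% of all genes were called higher and 4.42% lower. In siI2 and in siI3, 1 rose and 0 fell, where 1.51% and 10.6% of all genes were called in either direction. PDGFB, which recruits pericytes, rose to 29.9 ± 3.43 FPM, against 9.47 ± 3.02 FPM in siC (SD, n = 3 each), with a log2 fold change of 1.59 (SE 0.27, limma adjusted p = 0.0022). CXCL8, an angiogenic chemokine, fell to 13.1 ± 3.2 FPM, against 135 ± 22.3 FPM in siC, with a log2 fold change of -3.27 (SE 0.52, limma adjusted p = 0.0014). In siI1 against siC, PDGFB and CXCL8 were both called in 6 of 6 fits without 1 library and after the correction, at 1.23 for PDGFB and -2.65 for CXCL8. EFNB2, a marker ligand of arteries, fell in siI1 by 0.87 (limma adjusted p = 0.048) and lost its call in each of the 6 such fits. In siI2 EFNB2 was lower too, at -1.05 and not called (limma adjusted p = 0.052), but called after the correction, at -0.99. CXCL1, another angiogenic chemokine, rose in siI3 to 81.6 ± 21.8 FPM, against 33.9 ± 3.00 FPM in siC, with a log2 fold change of 1.21 (limma adjusted p = 0.0042), and rose in siI2 by 0.85 on the log2 scale (limma adjusted p = 0.048). After the correction these were 1.65 and 1.19, both called. The siI2 call was lost without siC replicate 1, siC replicate 3, siI2 replicate 1 or siI2 replicate 3.

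Of 15 secreted inhibitors of angiogenesis, 9 were tested. In siI1, 3 rose and 1 fell (median log2 fold change 0.71), in siI2 3 rose and 0 fell (median -0.03), and in siI3 2 rose and 3 fell (median -0.49). The shares of all genes called were 3.77% higher and 4.42% lower in siI1, 1.51% in either direction in siI2, and 2.3% higher and 8.29% lower in siI3. THBS1, the inhibitor thrombospondin-1, averaged 337 ± 24.3 FPM in siI1, 310 ± 23.2 FPM in siI2, 54.0 ± 5.6 FPM in siI3 and 142 ± 2.61 FPM in siC (SD, n = 3 each). It was called in all 3 knockdowns, at 1.24, 1.11 and -1.39 (SE 0.16; limma adjusted p = 4.0e-04, 0.0040 and 2.8e-04), and in 6 of 6 fits without 1 library in each. After the correction it was called at 1.45, 1.39 and -1.04. Its order across groups, siI1 and siI2 above siC and siI3 below, is that of HEG1.

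TIMP3, a metalloprotease inhibitor that blocks VEGFA binding to KDR, rose in siI2 by 1.0 on the log2 scale (limma adjusted p = 0.010) and fell in siI3 by 1.14 (limma adjusted p = 0.0022). SEMA3A, a NRP1 ligand, fell in siI1 by 2.14 (limma adjusted p = 0.0029) and in siI3 by 1.35 (limma adjusted p = 0.033). In siI2 SEMA3A was lower by 1.53, called by DESeq2 but not by limma (limma adjusted p = 0.052). After the correction its values were -1.56 in siI1, still called, and -0.94 in siI2 and -0.93 in siI3, neither called. COL18A1, the source of endostatin, rose in siI1, siI2 and siI3 by 1.0, 1.24 and 1.10 (limma adjusted p = 0.049, 0.048 and 0.032), and none of these was called after the correction, at 0.60, 0.81 and 0.62. ADAMTS1 rose in siI3 by 1.01 (limma adjusted p = 0.0053), and SERPINF1 rose in siI1 by 1.01 (limma adjusted p = 0.029). Of these, the calls of COL18A1 in all 3 knockdowns, SERPINF1 in siI1, SEMA3A in siI3 and TIMP3 in siI2 were lost without siC replicate 1, and all but that of TIMP3 also without siC replicate 3.

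VEGFA and ANGPTL4 are also known as targets of the hypoxia factors, so that pathway was listed with 32 genes, 27 of them tested. In siI1, 4 rose and 1 fell, in siI2 0 were called, and in siI3 0 rose and 2 fell. Of all genes, 3.77% were called higher and 4.42% lower in siI1, and 2.3% higher and 8.29% lower in siI3, so that the 2 of 27 that fell in siI3 are near the background. BNIP3, a mitophagy receptor, rose in siI1 to 79.1 ± 10.5 FPM, against 39.1 ± 2.34 FPM in siC (SD, n = 3 each), with a log2 fold change of 0.99 (SE 0.18, limma adjusted p = 0.0031). DDIT4, SLC2A1 and PFKFB4 rose there by 1.31, 0.89 and 0.89, and the oxidase ERO1A fell by 1.25, with limma adjusted p = 0.029, 0.042, 0.034 and 0.023. Each of these 4 lost its call without siC replicate 1 and without siC replicate 3, and all but DDIT4 lost it after the correction. In siI3, BNIP3L fell by 1.66 (limma adjusted p = 0.0025), or 1.18 after the correction, and P4HA1, a collagen prolyl hydroxylase, by 1.02 (limma adjusted p = 0.039), P4HA1 not being called after the correction or in 5 of the 6 fits without 1 library. In siI2, where limma called 1.51% of all genes, 7 of the 27 had an unadjusted p below 0.05, edgeR called 0 and DESeq2 called 1. The median log2 fold change of the 27 was 0.07 in siI1, -0.07 in siI2 and -0.04 in siI3.

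**Figure D3:**
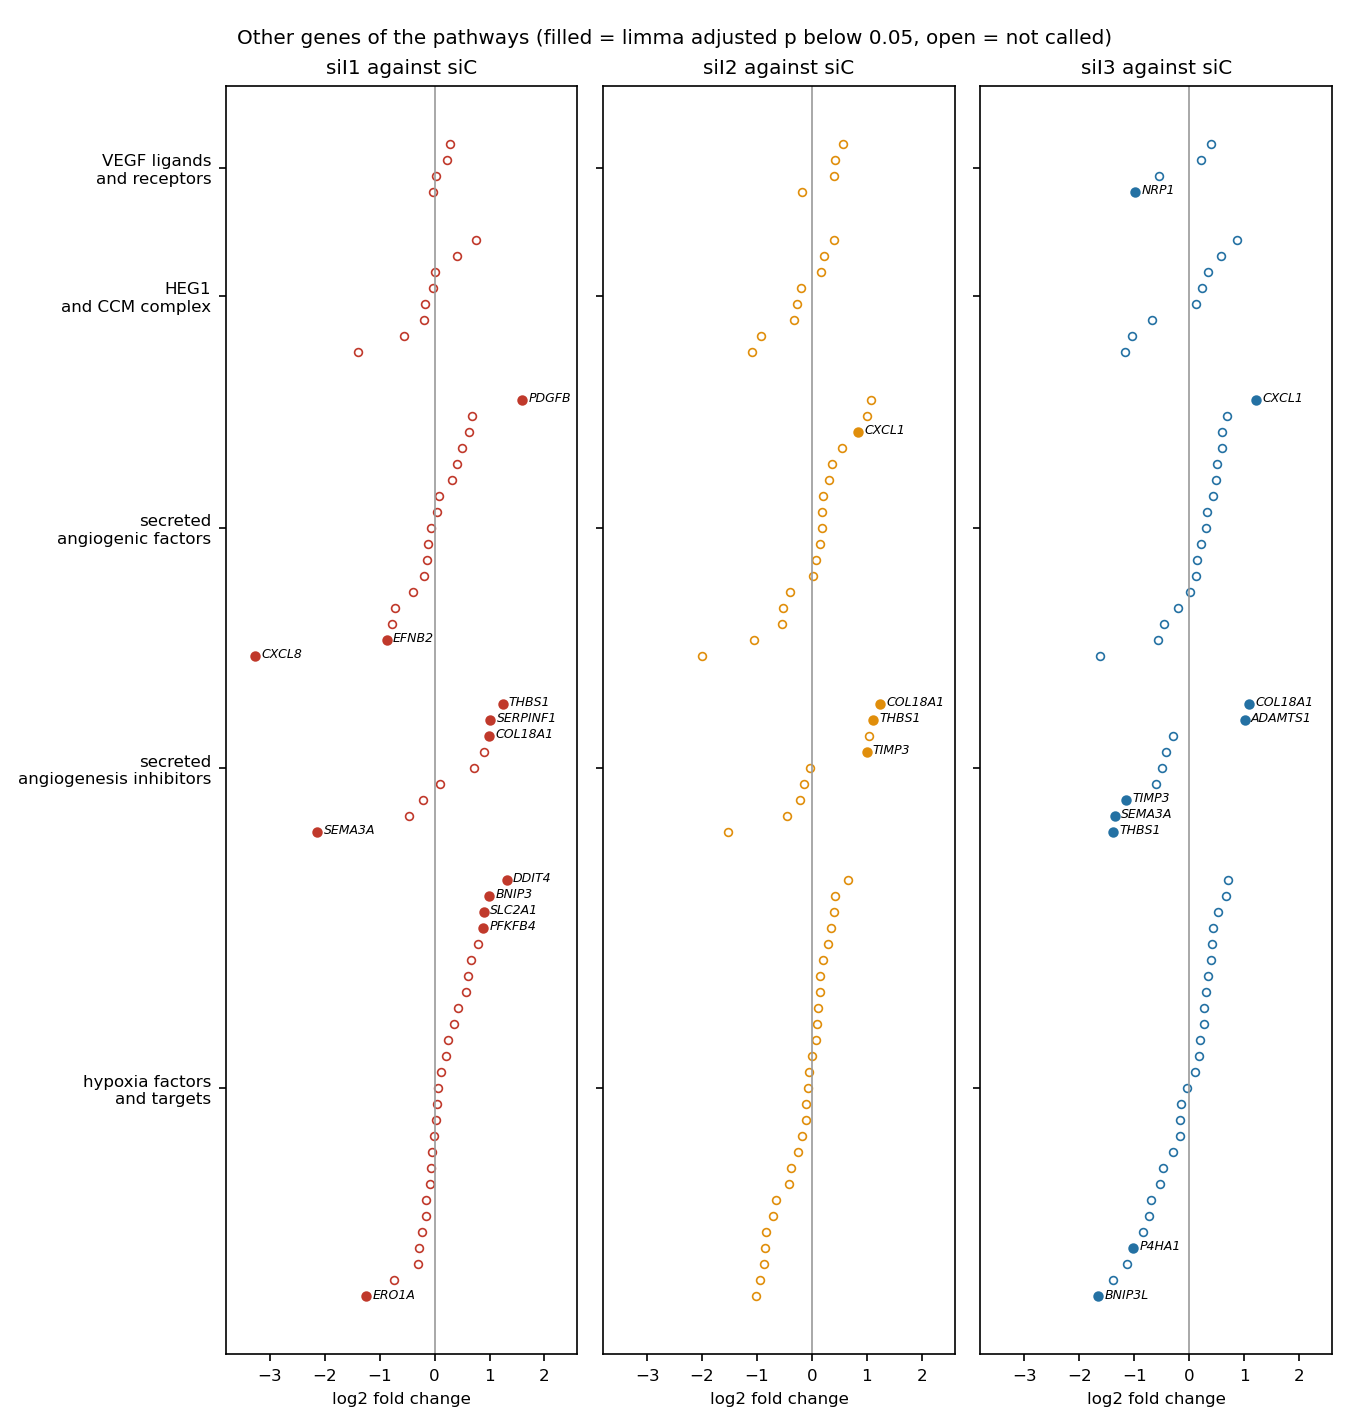
Log2 fold change (horizontal axis) of the tested genes of 5 lists around the 8 genes, in each knockdown against siC. Each point is a gene, sorted within its list, and filled points with names are genes called by limma. THBS1 lies right of 1 in siI1 and siI2 and left of -1 in siI3, and CXCL8 at -3.27 in siI1 is the lowest named point.

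Whether the endothelial-type genes came with the rest of an endothelial profile was read from 20 endothelial marker genes, of which 19 were found and 5 passed the filter. The other 14 stayed low, and 13 of the 19 had a mean under 1 FPM. Among these low markers, VWF, KDR, FLT1, TEK, CLDN5 and ERG reached at most 3.15, 2.20, 1.42, 0.354, 1.06 and 0.709 FPM in any library. TIE1 was never below 133 FPM. The vascular cadherin CDH5 was well above 0, and it was called higher in all 3 knockdowns. It averaged 140 ± 8.05 FPM in siI1, 114 ± 10.2 FPM in siI2, 101 ± 7.56 FPM in siI3 and 60.5 ± 9.77 FPM in siC (SD, n = 3 each), with log2 fold changes of 1.21, 0.91 and 0.74 (limma adjusted p = 6.4e-04, 0.015 and 0.020). The calls held after the correction in all 3. In siI1 the call held in 6 of 6 fits without 1 library, while in siI2 and siI3 it was lost without siC replicate 1, siC replicate 3 and others, leaving 3 and 2 of 6.

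ROBO4 lay at 17.3 to 32.3 FPM, NOS3 at 4.74 to 11.3 FPM and ESAM at 0.532 to 2.70 FPM over the 12 libraries, and none was called. ECSCR lay at 41.8 to 69.9 FPM, but 72.5% of its exon bases are shared with another annotated gene on the same strand, so its level is uncertain. The summed level of the 19 markers was 236 to 261 FPM in siI1, 184 to 230 in siI2, 183 to 221 in siI3 and 125 to 172 in siC. This sum follows mainly CDH5, ECSCR and ROBO4, with means of 104, 54.1 and 25.8 FPM over the 12 libraries. Of these only CDH5 was called, so the sum does not describe the markers as a set. Its part in the results above was not tested. In bulk RNA, fewer cells of a type and less RNA per cell cannot be told apart. Summed leukocyte markers were at 1.14 to 8.15 FPM and pericyte and smooth muscle markers at 9.40 to 23.2 FPM in any library, with CSPG4 higher in siI3 (log2 fold change 1.04, limma adjusted p = 0.040) and not called after the correction. Of the ovarian carcinoma markers, KRT7, KRT8 and KRT18 averaged 650, 78.9 and 201 FPM, while PAX8 and WT1 reached at most 2.91 and 2.39 FPM and EPCAM 0.970 FPM. KRT8 and KRT18 rose in siI1, by 1.73 and 1.0 (limma adjusted p = 1.7e-04 and 0.015), KRT18 in only 2 of 6 fits without 1 library, siC replicates 1 and 3 among those lost.

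**Figure D4:**
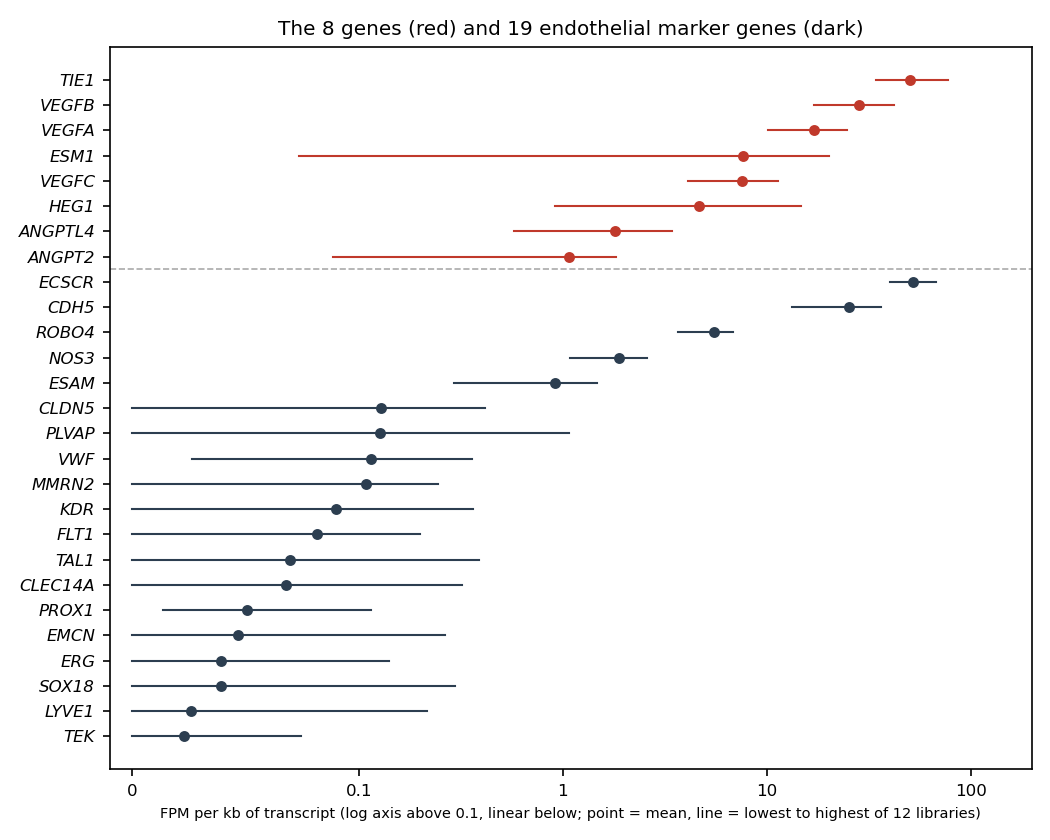
Level per kilobase of transcript (horizontal axis, FPM per kb, logarithmic above 0.1 and linear below) of the 8 genes in red and of 19 endothelial marker genes in dark. Points are means over the 12 libraries and lines run from the lowest to the highest library. TIE1, at 50.5 FPM per kb, stands with ECSCR, VEGFB and CDH5 at the top, while TEK, LYVE1, SOX18 and ERG lie below 0.1 FPM per kb.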

How the data were processed

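Total RNA from 12 libraries of ES-2 cells was sequenced, and per the submitters' processing notes reads were trimmed with cutadapt 1.6, mapped to hg19 with TopHat2 2.0.13 and counted with featureCounts 1.4.6, with edgeR 3.12 also named. The deposited table holds FPM, a signal scaled by the authors. It also holds, per the file headers, a log2 fold change and an adjusted p-value (FDR) of each knockdown against control by the authors, of which only log2 values are quoted. All values were whole multiples of 1 read within a tolerance of 0.01 (100% of values), so reads were recovered.

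Differences were fitted on log2(FPM + 1) with limma 3.58.1 (eBayes with trend), all 12 libraries together and a coefficient for each group; changes of low genes are understated on this scale. Genes were kept by filterByExpr (minimum count 10, edgeR 4.0.16), and p-values were adjusted by Benjamini-Hochberg over 13782 genes. edgeR on the recovered reads called 1388, 185 and 1370 genes in siI1, siI2 and siI3 against siC, and DESeq2 1.42.0 was another alternative. R 4.3.3 was used. The limma step was also run on simulated counts, whose outcome is not reported here. The correction for GC content and length subtracted a loess surface (span 0.5) from each library, for 98.47% of genes.

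The 8 genes, the 10 lists and the rule for named genes were chosen with earlier results of these data known. Named were the 8 genes, the IGF2BPs, MCPH1 as the coding gene overlapping ANGPT2, the 3 most alike genes each, and up to 4 called genes per list and direction. ESM1, ANGPTL4, VEGFA and VEGFC also overlap noncoding genes, not named here, which share 0 to 1.63% of their exon bases. Other list members and markers that the text names were chosen after their values were seen. For siI1 against siI2, every pair of libraries with the same replicate number deviated together (r of 0.195, 0.447 and 0.181). Libraries with different numbers reached similar values elsewhere, such as 0.425 for siI1 replicate 2 with siI3 replicate 3. These values therefore do not settle whether the numbers pair the libraries, and no label says so. In siI1 against siI2 the block changed no call of the 8 genes. PECAM1 was not analysed here. Intervals and floors cover counting error only.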

Additional observations from a re-analysis of the deposited data

How the results depend on the processing

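No direction of a called value of the 8 genes or the listed genes reversed under the alternatives run. The number of genes called moved more. Against siC, it was 1128 in siI1, 208 in siI2 and 1460 in siI3. With no filter on low values it was 481, 77 and 461, with the replicate block 696, 95 and 745, and with DESeq2 2014, 716 and 2296. With only the 6 libraries compared, siI1 gave 2039 and siI2 37, and with the correction for GC content and length siI3 gave 916. Leaving out 1 library gave 268 to 2602 in siI1, 28 to 1572 in siI2 and 89 to 2824 in siI3. Between knockdowns, siI1 against siI2 had 331 called, 172 with no filter, 647 with the correction, 544 with DESeq2 and 127 to 243 without 1 library. siI1 against siI3 had 971, 594 with no filter, 1589 with the correction and 546 to 1223 without 1 library. siI2 against siI3 had 276, 134 with no filter, 91 with only its 6 libraries, 496 with the correction, 557 with DESeq2 and 112 to 410 without 1 library. Of the 8 genes, 0 were called in siI2 against siC, 2 with the correction and 2 with DESeq2. In siI3 against siC, 2 were called, 1 with no filter or with only the 6 libraries and 1 to 4 without 1 library, and in siI2 against siI3, 3 were called, 1 with no filter or only the 6 libraries and 1 to 3 without 1 library. For the 8 genes, 724 alternative values stayed on their side of the threshold, 31 lost a call and 13 gained one. Outside siI1 against siI2, libraries of the same replicate number had r of -0.455 to 0.265. In siC against siI3 the values were 0.013, 0.190 and 0.265, all above 0, and a pairing is not settled there either. In the other comparisons some or all values lay below 0, so those libraries were taken to share only a number. The block ended 1 call of the 8 genes, ESM1 in siI2 against siI3. Among listed genes against siC, the block ended the calls of EFNB2, SERPINF1, COL18A1 and PFKFB4 in siI1, of CXCL1 and COL18A1 in siI2, and of SEMA3A, P4HA1 and CSPG4 in siI3, at limma adjusted p of 0.056 to 0.088. Low read numbers limit ESM1 and ANGPT2 in siI1.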
